A study of Mus musculus with 8 samples.

Results

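Scavenger receptors are the cell-surface and endosomal proteins through which macrophages bind modified lipoproteins, and 9 of their genes were followed on bead arrays of cholesterol-loaded and mock-treated mouse macrophages. The genes were *Cd36*, *Msr1*, *Marco*, *Scarb1*, *Scarb2*, *Cd68*, *Olr1*, *Stab1* and *Lrp1*, and every probe that the deposited annotation assigns to these symbols was taken, which gave 11 of the 45281 probes, for 9 of 30789 gene symbols. The cells were thioglycollate-elicited peritoneal macrophages, which enter the peritoneum in response to an injected irritant, from C57/BL6 mice of 8 weeks with no transgene or knockout. The 4 Ac-LDL samples were incubated for 24 h with acetylated LDL (Ac-LDL) at 120 μg per ml, and the 4 control samples were mock treated for the same time. The samples of each group are labelled biological replicates 1 to 4, without a statement of how many mice each holds, so that the p-values measure the spread between these samples. The comparison asks whether a macrophage that takes up modified LDL changes the transcripts of the receptors that can take it up.

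Scavenger receptors are grouped by structure and not by ancestry. The class A receptors encoded by *Msr1* and *Marco* are collagen-like trimers that bind polyanionic ligands, and the product of *Msr1* is the receptor best known for the uptake of acetylated LDL. The class B proteins cross the membrane at both ends: CD36 binds oxidized LDL and fatty acids, the *Scarb1* product SR-BI exchanges cholesteryl ester with high-density lipoprotein, and the *Scarb2* product LIMP-2 resides in lysosomes, where it delivers glucocerebrosidase. Macrosialin, the *Cd68* product, is a glycoprotein of late endosomes and lysosomes, LOX-1, the *Olr1* product, is a lectin-like receptor for oxidized LDL known mainly from endothelium, and stabilin-1, the *Stab1* product, is found in alternatively activated macrophages and sinusoidal endothelium. *Lrp1* encodes a large endocytic receptor for apolipoprotein E-bearing remnants. The scavenger receptors are known for continuing to take up lipid as a cell is loaded.

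Each gene was read by a probe of 50 bases, and *Olr1* and *Stab1* by a pair of them. The probes the results turn on are shown 5′ to 3′ as the annotation gives them. *Marco* and *Scarb1* are shown whole because they stayed near background with an ordinary base composition, and the other 4 are shown by their last 30 bases. *Msr1* and *Cd36* are A- and T-rich, and the pair of *Stab1* probes lie near each other in the transcript but did not read alike. The capitals mark the letters AATAAA, the usual polyadenylation signal.
Marco ILMN_1229922: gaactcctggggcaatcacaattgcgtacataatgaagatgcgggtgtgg
Scarb1 ILMN_1223315: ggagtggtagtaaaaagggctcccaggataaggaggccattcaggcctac
Msr1 ILMN_2619240: aggagatacaaatacatcagttataaacaa
Cd36 ILMN_1232470: cttggagagctgttatagtgttaaaagatg
Stab1 ILMN_2727432: ctgtttttggcagcagtgacatcttttgtg
Stab1 ILMN_2544343: ctcagccaccctgacaagcAATAAAaatgg

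The annotation places the probe of *Cd36* at chr5:17288332-17288381, *Msr1* at chr8:40690706-40690755, *Scarb1* at chr5:125761534-125761583, *Scarb2* (ILMN_2907331) at chr5:93519302-93519351, *Cd68* (ILMN_2689785) at chr11:69478360-69478409, *Lrp1* (ILMN_1237723) at chr10:126975293-126975342 and the *Olr1* probe ILMN_2745565 at chr6:129436538-129436587, all on the minus strand. It names no genome build, and it gives no coordinates for the probes of *Marco* and *Stab1* or for the *Olr1* probe ILMN_2674519. The letters AATAAA, searched on both strands, were on the printed strand of 2 of the 11 probes, a *Stab1* and an *Olr1* probe, and of 1.79% of all probes on the array. On the opposite strand they were in 1 member probe, ILMN_2674519 of *Olr1*, and in 1.39% of all probes.

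The arrays were alike in quality, with 36.8% to 38.5% of probes detected and a median signal over all probes of 42.5 to 46.4. The first slide carried replicates 1 and 2 of either treatment, and the second slide replicates 3 and 4. The first principal component of the tested probes held 50.2% of the variance, and its relation to slide, replicate or treatment was not tested. Between the slides, 23.6% of the tested probes were called in limma. All 10 macrophage markers (*Adgre1*, *Csf1r*, *Itgam* and 7 more) were detected on at least 4 arrays, while none of 5 T cell markers was. The B cell genes *Ms4a1* and *Blnk* and the granulocyte gene *S100a8* were detected on at least 4 arrays, as 2 of 5 B cell and 1 of 8 granulocyte and mast cell markers. Of 6 endothelial markers only *Vwf* was, and *Cdh5*, *Tek*, *Tie1* and *Cldn5* were detected on no array. Of 6 fibroblast and mesothelial markers, 5 were detected on at least 4 arrays, and their mean log2 intensity ranged from 9.62 to 9.98 over control and from 9.62 to 9.88 over Ac-LDL arrays. Since these are bulk samples, fewer cells of a type and less RNA per cell cannot be told apart.

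Among the 9 genes, *Scarb2*, *Cd68*, *Stab1* and *Lrp1* were detected on all 8 arrays, *Cd36* on 6, *Scarb1* on 2, *Marco* on 1, and *Msr1* and *Olr1* on none. A probe was called detected on an array where its detection p-value, the rank of its signal among the negative control beads, was at most 0.05. Probes detected on at least 4 of the 8 arrays were compared between groups. That held for 6 of the 11 member probes, for 5 of the 9 genes, against 37.8% of all probes on the array. Of the member probes, 5 were detected on all 8 arrays and 3 on none, against 31.9% and 54.2% of all probes. Each probe binds with its own strength, so signals of different probes are not read as levels of their transcripts relative to each other, and a probe called brighter is only the one with the higher signal.

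**Figure D1:**
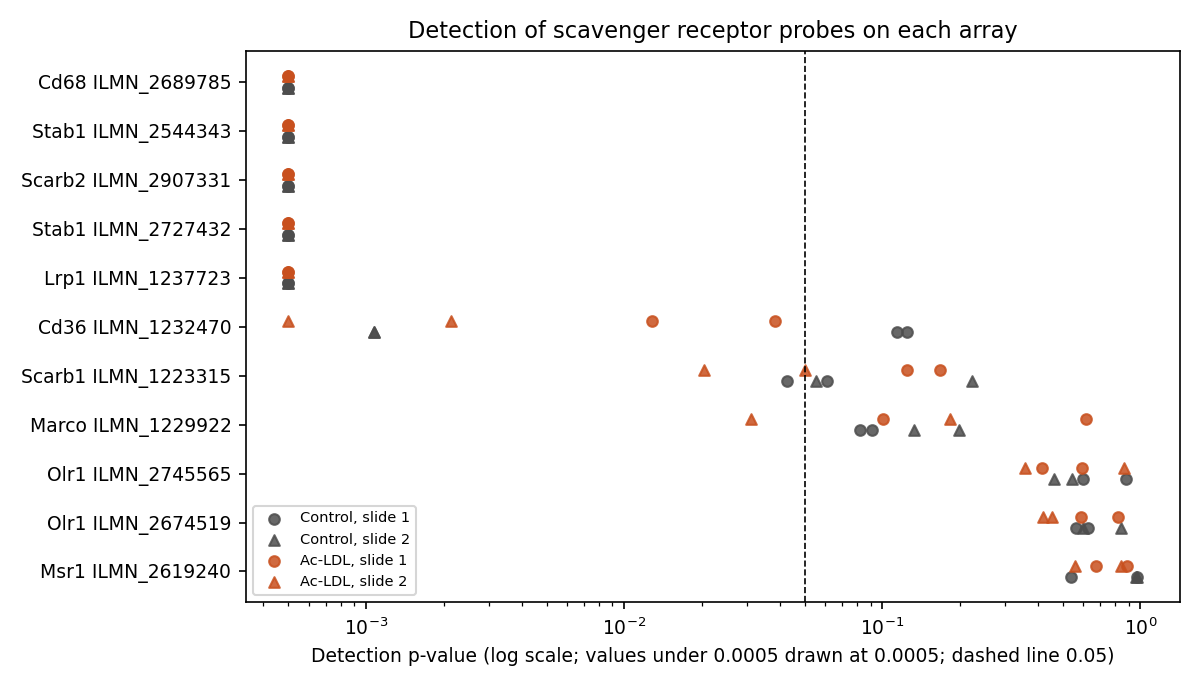
Detection p-value (log scale) of each of the 11 scavenger receptor probes on each of the 8 arrays, with the dashed line at 0.05. The *Scarb2*, *Cd68*, *Stab1* and *Lrp1* probes sit at the left edge on all 8 arrays, *Cd36* crosses the line on the 2 control arrays of the first slide, and *Msr1* and *Olr1* lie right of it throughout.

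The probe of *Msr1*, the gene for the class A receptor named for acetylated LDL, gave raw signals of 32.5 to 39.2 on the 8 arrays, with detection p-values of 0.537 to 0.972. Its signal was thus ranked in the lower part of the negative controls on every array, those with Ac-LDL included. The *Olr1* probes gave 34.3 to 40.9 and 34.8 to 41.7, with detection p-values of 0.358 and above. A value at this level is not evidence that the transcript was absent, since it says only that these probes did not detect it.

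The probes of these receptors were of unusual composition, with G and C making up 26% of the *Msr1* probe and 30% and 28% of the *Olr1* probes, against a median of 52% over the array. In the class of at most 30%, 13 of 1476 probes, or 0.881%, were detected on at least 4 arrays, and 97.4% were detected on none. The share was much the same, 0.882%, among the 340 probes of this class whose gene had another probe detected on all 8 arrays. In the class over 50% to 60%, where *Scarb1*, *Scarb2*, *Cd68* and ILMN_2544343 of *Stab1* lie, 42.4% of probes were detected on at least 4 arrays. *Cd36*, with 38%, lies in the class over 30% to 40%, where the share was 15.8%. The part of base composition in the readings of the single receptors was not tested.

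**Figure D2:**
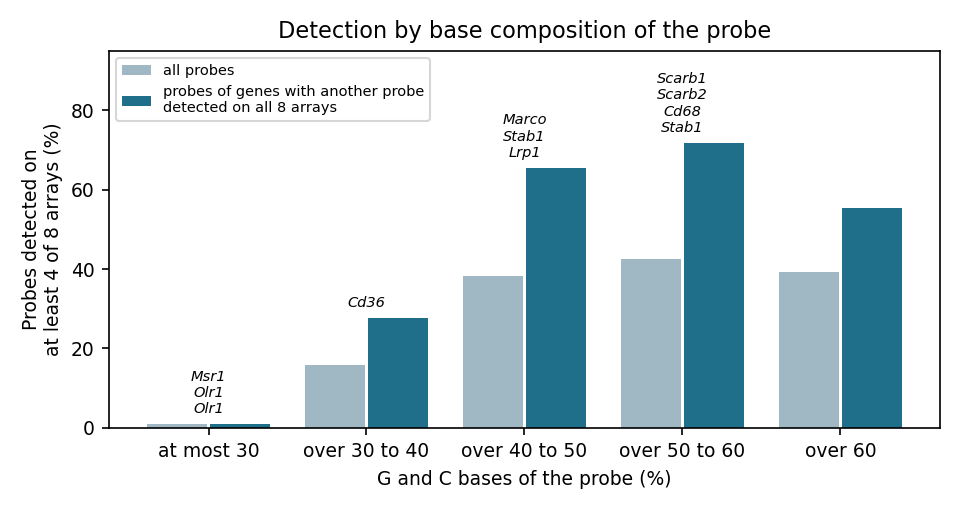
Share of probes detected on at least 4 of 8 arrays, by the G and C content of the probe, for all probes and for probes of genes with another probe detected on all 8 arrays. The share is 0.881% and 0.882% in the lowest class, which holds the *Msr1* and *Olr1* probes, and 42.4% and 71.8% in the class from over 50 to 60%.

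*Marco* and *Scarb1* stayed near background without such a composition, with 50% and 54% of G and C. The *Marco* probe gave 36.6 to 53.9 and was detected on Ac-LDL replicate 4 alone (detection p-value 0.0310). The *Scarb1* probe gave 44.4 to 56.8 and was detected on control replicate 2 (0.0427) and Ac-LDL replicate 3 (0.0203). For both genes the detected arrays do not separate the groups, and neither was compared between them. A further probe on the array, ILMN_1218449, carries the symbol *Srb1*, which the RefSeq gene table lists as an older name of *Scarb1*, and it was detected on 0 arrays, with signals of 39.4 to 50.9. Likewise ILMN_1246340, under a clone name that the table lists for *Scarb2*, was detected on 7 arrays, with signals of 48.5 to 79.1. Neither probe carries a member's symbol, and neither was counted among the 11.

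No scavenger receptor was called changed by Ac-LDL. Of the 5 genes compared, 0 had an adjusted p under 0.05 in limma's test, where 0.0409% of the 17122 tested probes (7 probes) did, and 0 had an unadjusted p under 0.05, where 5.2% of all probes did. With the replicate number as a block, which compares the control and Ac-LDL arrays of the same number, 0 of the 5 genes were again called, where 0.444% of all probes were, and *Cd36* was the only gene with an unadjusted p under 0.05, where 13.8% of probes had one. With the slide as a block, 0 were called, where 0.321% of probes were. The groups overlapped for all 11 member probes, where 3.8% of tested probes had groups that did not. By brightest probe 4 genes were higher and 1 lower with Ac-LDL, with a median difference of 0.06 on the log2 scale, against a median of 0.00 over all tested probes, of which 50.4% were higher. This tally depends on the scaling. With median scaling, which moved the median of all probes to -0.09, *Scarb2* and *Cd68* were lower too, at -0.069 and -0.058.

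*Cd36*, the class B receptor for oxidized LDL and fatty acids, had the widest difference among the genes. Its normalized log2 intensities were 4.56, 4.58, 5.52 and 5.53 in control replicates 1 to 4 and 5.18, 4.89, 5.44 and 6.20 in Ac-LDL replicates 1 to 4. The groups overlap, the controls fall into a low and a high pair by slide, and Ac-LDL replicate 4 is the highest of all 8 arrays. Control samples had a mean of 5.05 ± 0.55 (SD, n = 4) and Ac-LDL samples a mean of 5.43 ± 0.56 (SD, n = 4), a difference of 0.38 (standard error 0.31) with a 95% confidence interval from -0.32 to 1.08 that takes in no change as well as a 2.11-fold rise (limma adjusted p = 0.975, exact two-sided permutation test p = 0.457). The control arrays of the first slide were those on which *Cd36* was not detected, so that the lower end of the comparison lies at background. In the pairs of arrays with the same number, Ac-LDL was higher in 3 of 4, with differences from -0.08 to 0.67, and within the slides the difference was 0.46 and 0.30. It was 0.12 without Ac-LDL replicate 4 and 0.16 with array weights. The replicate block gave a standard error of 0.13, an unadjusted p of 0.0162 and an adjusted p of 0.256, and the slide block p-values of 0.0281 and 0.345 (limma). The interval above is thus that of the fit without a block, and an unadjusted interval with the replicate block would leave out 0.

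**Figure D3:**
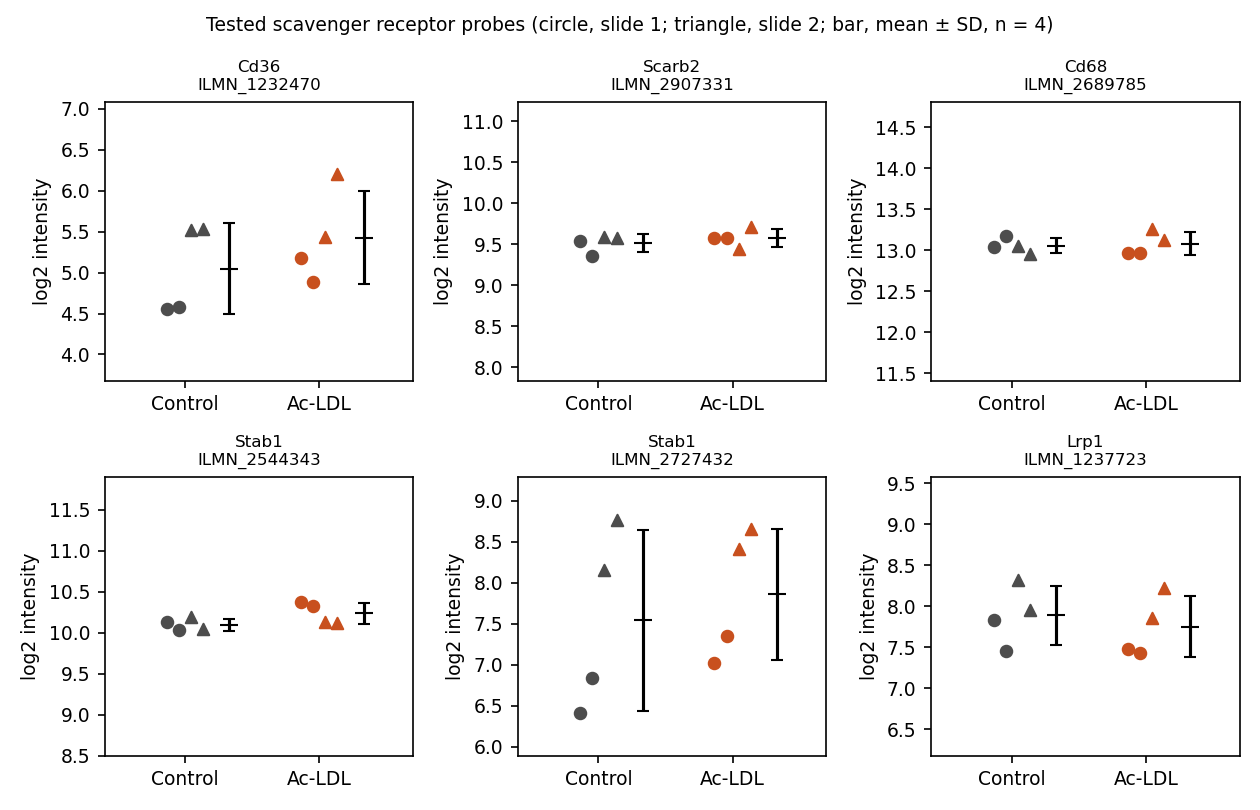
Normalized log2 intensity of the 6 tested scavenger receptor probes on each array, for control and Ac-LDL samples, with circles for slide 1, triangles for slide 2 and bars for the mean ± SD (n = 4). The groups overlap in every panel, and in the panels of *Cd36*, *Lrp1* and *Stab1* ILMN_2727432 the triangles all lie above the circles.

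The member probes of the lysosomal genes varied little across the arrays. *Scarb2* is given here by ILMN_2907331 alone, and no difference with Ac-LDL is given for ILMN_1246340, the probe under a clone name. *Scarb2*, which encodes the lysosomal sorting receptor LIMP-2, read 9.54, 9.36, 9.59 and 9.58 on the control and 9.58, 9.57, 9.44 and 9.71 on the Ac-LDL arrays. All 8 values lie within 0.35 of each other on the log2 scale, and the highest and the next to lowest were both Ac-LDL arrays. The difference was 0.06 (standard error 0.10, 95% confidence interval -0.16 to 0.28, limma adjusted p = 0.990). *Cd68*, the usual macrophage marker, read 13.05, 13.17, 13.06 and 12.96 on the control and 12.97, 12.97, 13.26 and 13.13 on the Ac-LDL arrays. Ac-LDL was lower in both pairs of the first slide and higher in both pairs of the second, so that the difference of 0.02 (standard error 0.10, 95% confidence interval -0.20 to 0.25, limma adjusted p = 0.994) averages -0.14 on the first and 0.19 on the second slide. For *Scarb2* and *Cd68* the interval of this fit excludes a rise of more than 1.21-fold and 1.19-fold, and a fall below 0.895 and 0.870 of the control level. These limits hold for this fit only. With median scaling *Scarb2* was at -0.069 (standard error 0.13), and the standard error of *Cd68* within the second slide was 0.12.

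*Stab1*, the gene for stabilin-1, was read by probes whose starts lie 205 bases apart in the transcript. The brighter, ILMN_2544343, read 10.13, 10.03, 10.19 and 10.05 on the control and 10.37, 10.32, 10.13 and 10.12 on the Ac-LDL arrays. The Ac-LDL arrays of the first slide were the highest of the 8, and those of the second lay among the controls. The difference was 0.14 (standard error 0.10, 95% confidence interval -0.08 to 0.35, limma adjusted p = 0.964), with an exact two-sided permutation p of 0.143, the smallest of the members; it was 0.27 within the first and 0.01 within the second slide.

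The dimmer *Stab1* probe, ILMN_2727432, read 6.41, 6.84, 8.16 and 8.77 on the control and 7.02, 7.35, 8.42 and 8.66 on the Ac-LDL arrays. The 4 values of the second slide are all above the 4 of the first, whichever the treatment. The difference with Ac-LDL was 0.32 (standard error 0.53, 95% confidence interval -0.87 to 1.50, limma adjusted p = 0.990). With the replicate block its standard error was 0.12, its unadjusted p 0.0286 and its adjusted p 0.310 (limma). Here too an unadjusted interval with that block would leave out 0. The difference turned to -0.06 without control replicate 1.

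*Lrp1*, the endocytic receptor for apolipoprotein E-bearing remnants, was the only gene with a lower mean in Ac-LDL-treated cells. It read 7.83, 7.45, 8.32 and 7.95 on the control and 7.48, 7.43, 7.86 and 8.22 on the Ac-LDL arrays. Ac-LDL was lower in 3 of the 4 pairs, and the groups overlap over most of their range. The difference was -0.14 (standard error 0.21, 95% confidence interval -0.61 to 0.34, limma adjusted p = 0.989), and it was 0.01 without control replicate 3, the highest of the 8 arrays.

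**Figure D4:**
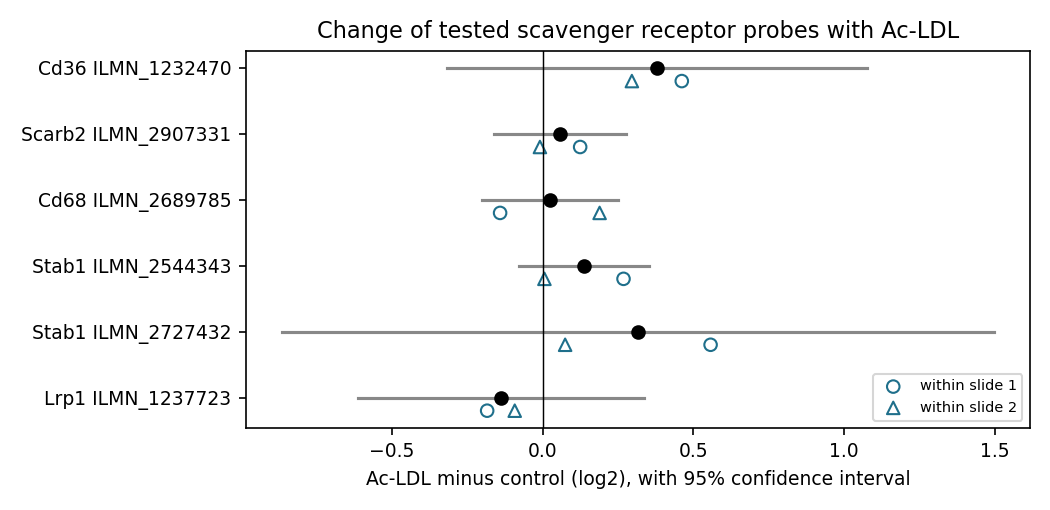
Difference between Ac-LDL and control (log2) for the 6 tested scavenger receptor probes, with the 95% confidence interval of the 2-group fit, beside the values within each slide. All 6 intervals include 0, that of ILMN_2727432 of *Stab1* runs from -0.87 to 1.50, and those of *Scarb2*, *Cd68* and ILMN_2544343 of *Stab1* stay between -0.20 and 0.35.

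Each member signal rested on 22 to 57 beads, and its bead standard error was 2.07% to 8.81% of the signal. The residual SD between samples was 0.56 on the log2 scale for *Cd36*, 0.96 for ILMN_2727432 of *Stab1* and 0.11 for *Scarb2*.

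The spread of *Cd36*, *Lrp1* and the dimmer *Stab1* probe ran with the slide. Compared between slides with the treatment as a block, 3 of the 6 member probes were called, all higher on the second slide, where 23.6% of all tested probes were called and 11.7% were called higher. *Cd36* was 0.87 higher on the second slide (standard error 0.15, limma adjusted p = 0.00354), a 1.83-fold difference from a mean that lies partly at background, as the probe was not detected on 2 of the 4 arrays of the first slide. *Lrp1* was 0.54 higher (standard error 0.12, limma adjusted p = 0.0133) and ILMN_2727432 of *Stab1* 1.60 higher (standard error 0.17, limma adjusted p = 0.000677), or 3.02-fold. In all 3 the slides did not overlap, where 10.7% of tested probes had slides that did not overlap and were higher on the second. *Scarb2* (0.07), *Cd68* (0.06) and ILMN_2544343 of *Stab1* (-0.09) were not called between slides (limma adjusted p = 0.621, 0.670 and 0.474). Each slide holds 2 replicates, and the fit counts the control and Ac-LDL arrays of a replicate as independent. The p-values between slides thus rest on arrays and not on replicates, and can be too small, which was not tested.

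The macrophage markers differed between the slides in the same direction. All 10 were higher on the second slide, as were 47.3% of all tested probes, and 6 of them were called, where 11.7% of all tested probes were called higher and 23.6% in either direction. Their median difference was 0.57, and their mean log2 intensity was 9.39 to 9.87 on the arrays of the first and 10.2 to 10.4 on those of the second slide. The size of the difference varied. *Lyz2* (0.14) and *Laptm5* (0.18) were among the markers not called (limma adjusted p = 0.208 and 0.133). *Cd68*, which is not in this list, was at 0.06. Among the other marker lists, the fibroblast and mesothelial genes had a median of -0.13, with 1 of 5 called, lower on the second slide. The B cell list had a median of 0.03 and the granulocyte gene *S100a8* was at 0.04 and the endothelial gene *Vwf* at 0.43, with 0 called in limma. With Ac-LDL 5 of the 10 were higher and 5 lower, and the mean log2 intensity of the list was 9.39 to 10.4 on control and 9.67 to 10.4 on Ac-LDL arrays. An unadjusted p under 0.05 was found for 2 of the 10 without a block and for 5 with the replicate block (limma), where 5.2% and 13.8% of all tested probes had one. The slides hold different biological replicates, so that a difference of hybridization and a difference of cell preparation cannot be told apart, and the part of the macrophage markers in the receptors' values was not tested.

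**Figure D5:**
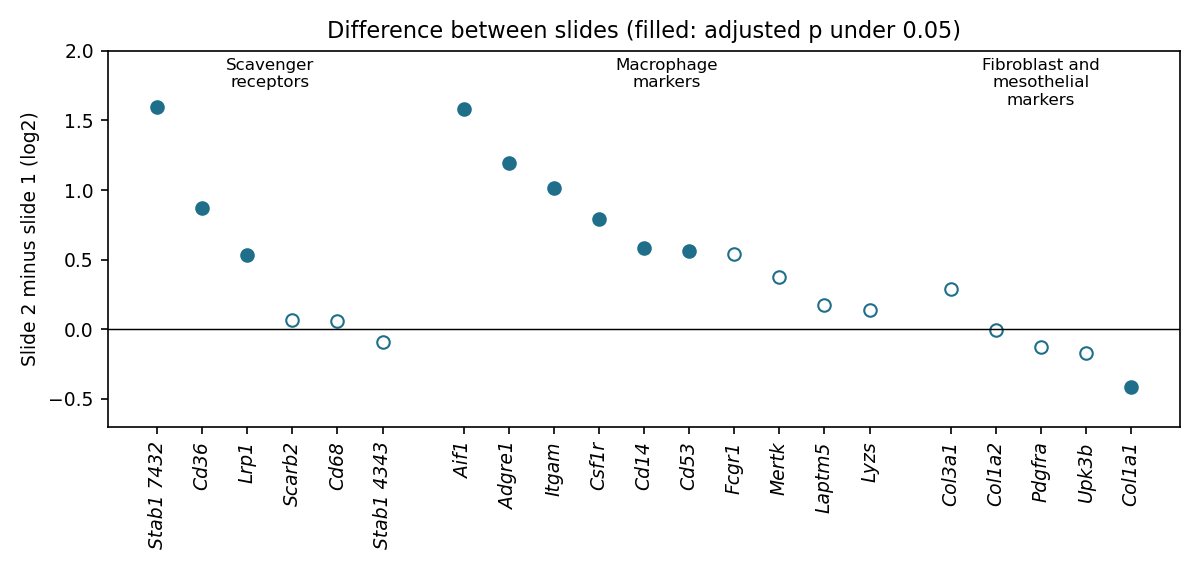
Difference between the second and the first slide (log2) for the 6 tested scavenger receptor probes and the macrophage and fibroblast markers, with filled points for an adjusted p under 0.05 and the *Stab1* probes labelled by their last digits. *Cd36*, *Lrp1* and ILMN_2727432 of *Stab1* are filled and above 0, as are 6 of the 10 macrophage markers, while *Scarb2*, *Cd68* and ILMN_2544343 of *Stab1* lie near 0.

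The *Stab1* probes went apart between the slides, 1.60 against -0.09, a difference of 1.69. It is given without a test, since it was noticed in these data and each slide holds 2 replicates. Of 3413 genes with at least 2 tested probes, the median range of the slide differences among a gene's probes was 0.17, and *Stab1* was the only gene with a range of 1.69 or more. A probe called beside a probe not called between slides was common, in 28.6% of these genes. Of the sequences above, the even probe ILMN_2544343 is the nearer to the transcript's 3′ end and carries AATAAA. In the RefSeq gene table *Stab1* overlaps *Nt5dc2* and the long non-coding RNA gene *Gm52148*, and the *Nt5dc2* probe ILMN_2660519 differed by 0.12 between slides. No value is given for *Gm52148*. The annotation gives no coordinates for the *Stab1* probes, so whether they lie in an overlap is not known. The part of probe position or of these neighbours in the difference between the *Stab1* probes was not tested. The changes of the *Stab1* probes with Ac-LDL differed by 0.18, with an exact two-sided permutation p of 0.743. This test does not keep same-numbered arrays paired, so that its p includes the spread between replicates.

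Taking each gene by its brightest tested probe, *Cd36* had the largest SD over the 8 arrays, 0.55 on the log2 scale. The tested probes of other genes with the most similar pattern, by root mean square difference of centred log2 values over these 8 arrays, were those of *Arhgap15* (0.12), *Sult1a1* (0.14) and the predicted gene *EG328314* (0.14). Their differences between slides were 0.81, 0.87 and 0.62, and those with Ac-LDL 0.28, 0.32 and 0.33. They were chosen for their likeness over these same 8 arrays, so that these differences are a description of the choice.

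In the lists of genes around the 9 receptors, calls came only where the arrays were compared within a replicate or slide. Of 9 tested relatives of *Lrp1*, 5 were higher and 4 lower, with a median of 0.01, and 0 were called in limma without a block but 1 with either block, where 0.444% of all tested probes were called with the replicate block and 0.321% with that of the slide. An unadjusted p under 0.05 was found for 1 of the 9 without a block and for 2 with the replicate block, where 5.2% and 13.8% of all probes had one. This was *Lrp8*, an apolipoprotein E receptor (ILMN_1247823), which read 5.41, 5.33, 6.23 and 6.06 on the control and 5.06, 4.72, 5.36 and 5.31 on the Ac-LDL arrays. It was lower with Ac-LDL in each of the 4 pairs, while the groups overlapped by the controls of the first and the Ac-LDL arrays of the second slide. The difference was -0.65 (standard error 0.22, limma adjusted p = 0.818, or 0.0395 by replicate block and 0.0467 by slide block), and its lower end lies partly at background, since the probe was not detected on Ac-LDL replicate 2 (detection p-value 0.0726). *Sorl1*, an intracellular sorting receptor, had the highest positive difference of these genes at 0.35 (limma adjusted p = 0.960).

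The other lists held few or no calls. Of 9 tested scavenger receptors outside the 9 followed, 7 were higher and 2 lower with a median of 0.18, and 0 were called in limma without a block or with either block, with 1 unadjusted p under 0.05 without a block and 4 with the replicate block, where 5.2% and 13.8% of all tested probes had one. *Stab2*, the paralogue of *Stab1*, had the highest difference of these at 0.36 (limma adjusted p = 0.854) but was detected on 4 of the 8 arrays, so that its values lie partly at background, and *Cxcl16*, the gene for a transmembrane chemokine that binds oxidized LDL, the lowest at -0.29 (limma adjusted p = 0.961). Of 14 tested adaptors and partners of the receptors, 7 were higher and 7 lower and 0 were called in limma under any of the 3 fits, with 0 unadjusted p under 0.05 without a block (5.2% of all tested probes) and 2 with the replicate block (13.8%). Their extremes were *Tlr6*, a Toll-like receptor that signals together with CD36, at 0.21 (limma adjusted p = 0.961) and *Pdzk1ip1*, whose product binds the SR-BI adaptor PDZK1, at -0.37 (limma adjusted p = 0.960). The *Pdzk1ip1* probe was detected on 7 of the 8 arrays, so that its values lie partly at background.

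Of 8 tested ligands and cargo genes, 6 were higher and 2 lower with a median of 0.08, and 1 was called, with the replicate block alone (0.444% of all tested probes). An unadjusted p under 0.05 was found for 2 of the 8 without a block and for 3 with the replicate block, where 5.2% and 13.8% of all probes had one. The called gene was *Apoe*, an apolipoprotein that *Lrp1* binds, which read 9.91, 10.76, 11.26 and 11.47 on the control and 10.38, 11.42, 11.81 and 12.19 on the Ac-LDL arrays. It was higher with Ac-LDL in each of the 4 pairs while the groups overlapped, with a difference of 0.60 (standard error 0.41, limma adjusted p = 0.963, or 0.0261 by replicate block and 0.342 by slide block). The lowest was *Thbs2*, a matrix thrombospondin of the kind CD36 binds, at -0.06 (limma adjusted p = 0.996). Among the macrophage markers *Mertk*, the receptor for apoptotic cells, was the 1 of 10 called, with the replicate block alone (0.444% of all tested probes), with a difference of 0.56 (limma adjusted p = 0.817, or 0.0364 by replicate block and 0.166 by slide block). The highest difference of this list was that of *Fcgr1*, an Fc receptor, at 0.61 (limma adjusted p = 0.942, or 0.156 by replicate block), and the lowest that of *Cd14*, a coreceptor for lipopolysaccharide, at -0.48 (limma adjusted p = 0.960, or 0.0808 by replicate block).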

How the data were processed

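The labels give total RNA, from which the study's methods say mRNA was purified, and labelled cRNA was hybridized to Illumina mouse bead chips. For each probe and array, the authors deposited a signal, the mean intensity of its beads on the linear scale without normalization, with a bead standard error of this intensity, a bead number and a detection p-value. The submitters' processing notes name BeadStudio. The study's normalization in GeneSpring GX was not used here, and no deposited column holds its comparisons.

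With R 4.3.3 and limma 3.58.1, signals were background-corrected (normexp, negative controls inferred from the detection p-values, offset 16), quantile normalized and put on the log2 scale. Tests covered the 17122 probes detected (detection p-value up to 0.05) on 4 or more of the 8 arrays, for 4 Ac-LDL against 4 control arrays with limma. P-values were adjusted by Benjamini-Hochberg over all of them, and probes called at an adjusted p under 0.05. The study's test was unpaired, and so was this one. The 11 probes, 6 of them tested, were those whose symbol is a member. A gene is given by its brightest tested probe. Of the 4 wider lists of receptor-related genes and the macrophage markers, the text names genes called in any of the 3 fits and the largest rise and fall of each. The other marker lists served to describe the samples. An item of the wider lists is not reported here and was left out of their counts. The members and lists were chosen with earlier results of these data known. Exact permutation tests used all 70 assignments of arrays, which do not keep same-numbered arrays paired. The code was tested on simulated data.

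Same-numbered control and Ac-LDL arrays shared deviations from their group means, with a correlation across probes of 0.579, 0.479, 0.468 and 0.629 for replicates 1 to 4, and they also share a slide. The replicate number and the slide were therefore used as blocks in alternative fits. The other alternatives were median scaling, no background correction, an offset of 50, cyclic loess, no filter, a stricter filter, fits within a slide, a trended robust prior, array weights, the methods' t-test and leaving out arrays. Depth does not apply to arrays, and their number limits the precision.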

Additional observations from a re-analysis of the deposited data

Results flagged for a closer look

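Within a group of 4 samples, 2 values of undetected receptor probes stood apart from the others by Dixon's test, of 22 groups examined, where about 1.1 is expected by chance at 5%. The *Msr1* probe ILMN_2619240 read 4.33 on the log2 scale on control replicate 2, against 4.22 to 4.22 on the other control arrays. The *Olr1* probe ILMN_2674519 read 4.26 on control replicate 3, against 4.31 to 4.32 on the others. Both probes were undetected on all 8 arrays.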

How the results depend on the processing

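No scavenger receptor gene was called under any of the 26 alternatives. The adjusted p of *Cd36* was 0.218 or above, and *Cd36* could not be tested under the stricter filter. *Cd36* and ILMN_2544343 of *Stab1* kept a positive difference throughout, with 0.12 to 0.56 and 0.09 to 0.20 when arrays were left out. ILMN_2544343, at 0.14, came to 0.011 with median scaling and 0.0059 within the second slide, and *Cd36* to 0.16 with array weights and 0.20 with an offset of 50. The sign of 4 probes' differences turned under some alternatives, and the cause was not tested. With median scaling, which moved the median of all probes to -0.09, *Cd68* was at -0.058 and *Scarb2* at -0.069. Within the first slide *Cd68* was at -0.14, within the second *Scarb2* was at -0.0090, and with array weights ILMN_2727432 of *Stab1* was at -0.038. With arrays left out, *Cd68* ranged from -0.037 to 0.10, *Lrp1* from -0.30 to 0.0055, *Scarb2* from 0.0049 to 0.13 and ILMN_2727432 of *Stab1* from -0.062 to 0.72.

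The number of tested probes called was 7 and moved to 26 with median scaling, 14 without background correction, 0 of 45281 without the filter (2290 with an unadjusted p under 0.05), 14 and 16 within the first and the second slide, 16 with a trended robust prior, 16 with array weights and 0 with the methods' t-test (1039 unadjusted). Paired by the replicate block it was 76, and with the slide block 55. With arrays left out it ranged from 0 to 15, with the 15 without control replicate 2. Among the relatives of *Lrp1*, 1 gene was called by either block, and among the ligands 1 with the replicate block; the blocks changed no call of a scavenger receptor. At the fold limits that the study set for rises and falls, with an unadjusted p under 0.05 in the methods' t-test, 28 probes were higher and 25 lower, 0 of them receptor probes. The limit for falls was the wider, so that these counts cannot be set against each other.

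The detection limit bounds *Cd36* on 2 control arrays, *Marco* and *Scarb1* on most arrays, and *Msr1* and *Olr1* on all 8. For these 4 last genes a change could not be read.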
